A study of Rattus norvegicus with 10 samples.

Results

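The 9 genes examined here carry out the breakdown of amino acids and the disposal of their nitrogen as urea. They were the 5 enzymes of the urea cycle, Cps1, Otc, Ass1, Asl and Arg1, and 4 enzymes that begin the breakdown of single amino acids, Gls2, Sds, Tdo2 and Hal. Members were all array probes whose transcript accession gave 1 of these symbols, whatever their values, and each of the 9 genes had exactly 1 probe, out of 13438 genes with a symbol and 41012 probes on the array. The liver of 10 male Wistar rats was measured, with 1 single-colour array per rat. Of these, 3 control rats had received neither irradiation nor drug. Total body irradiation (TBI) at 6.5 Gy, the dose the labels give, had been applied to 3 rats. MASM, a synthetic derivative of the plant alkaloid matrine, had been given by stomach tube to 4 further rats (MASM + TBI), at 30 mg/kg a day for 3 days before the same irradiation. Liver was taken 24 h after exposure. No array held liver of rats given MASM alone, and the age of the rats is not given in the sources used here. The study's methods state a slightly different dose for these animals than the labels do.

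Amino acids that are not used for protein lose their nitrogen in the liver, largely as ammonia. Hepatocytes around the portal vein turn this ammonia into urea through the urea cycle, and hepatocytes around the central vein catch what escapes as glutamine. Many of the enzymes are raised in fasting, on a high-protein diet and by glucagon and glucocorticoids.

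The rat labels were checked first with Cdkn1a, the p53 target that encodes the cell cycle inhibitor p21. Its log2 intensity was 8.01, 8.25 and 8.84 in the control rats, 13.47, 13.67 and 14.06 in the TBI rats and 13.06, 13.23, 12.80 and 13.58 in the MASM + TBI rats, so both irradiated groups lay far above every control. The study's heatmap prints the control and TBI columns under each other's names relative to the array labels, which bears on the sign of every difference, and the order of Cdkn1a is that of the labels used here. The liver label was checked with 8 hepatocyte markers, all of which stood well above background on each of the 10 arrays. The arrays had 56.2% to 70.1% of their spots well above background, and the brightest was that of TBI rat 3. The 3 control arrays and that of MASM + TBI rat 3 shared a slide, the 3 TBI arrays had a slide of their own, and the other 3 MASM + TBI arrays had another, so TBI and slide cannot be told apart.

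None of the 9 genes passed the test in any of the 3 comparisons. Values are log2 intensities after quantile normalization, and a gene was called when limma gave an adjusted p under 0.05 with the Benjamini-Hochberg adjustment over all 40945 probes. The count was 0 of 9 for TBI against control, where 5.63% of all probes were called, 0 of 9 for MASM + TBI against control, where 2.99% were called, and 0 of 9 for MASM + TBI against TBI, where 1.63% were called. At an unadjusted p under 0.05 the counts were 1, 4 and 2 of 9, against 23.5%, 17% and 17% of all probes. Whether these counts differ from the shares over all probes was not tested. The study's own threshold, an unadjusted p under 0.05 with a change of at least 1.5-fold, was applied with limma in place of the study's t-test. It was met by Sds in both comparisons with control (12.6% and 8.06% of all probes) and by no gene between the irradiated groups (7.98%). With the methods' t-test, run as a Welch test, 0 of 9 met it in either comparison with control. All 9 genes were well above background on every array. In whole liver, fewer cells of a type and less RNA per cell cannot be told apart.

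**Figure D1:**
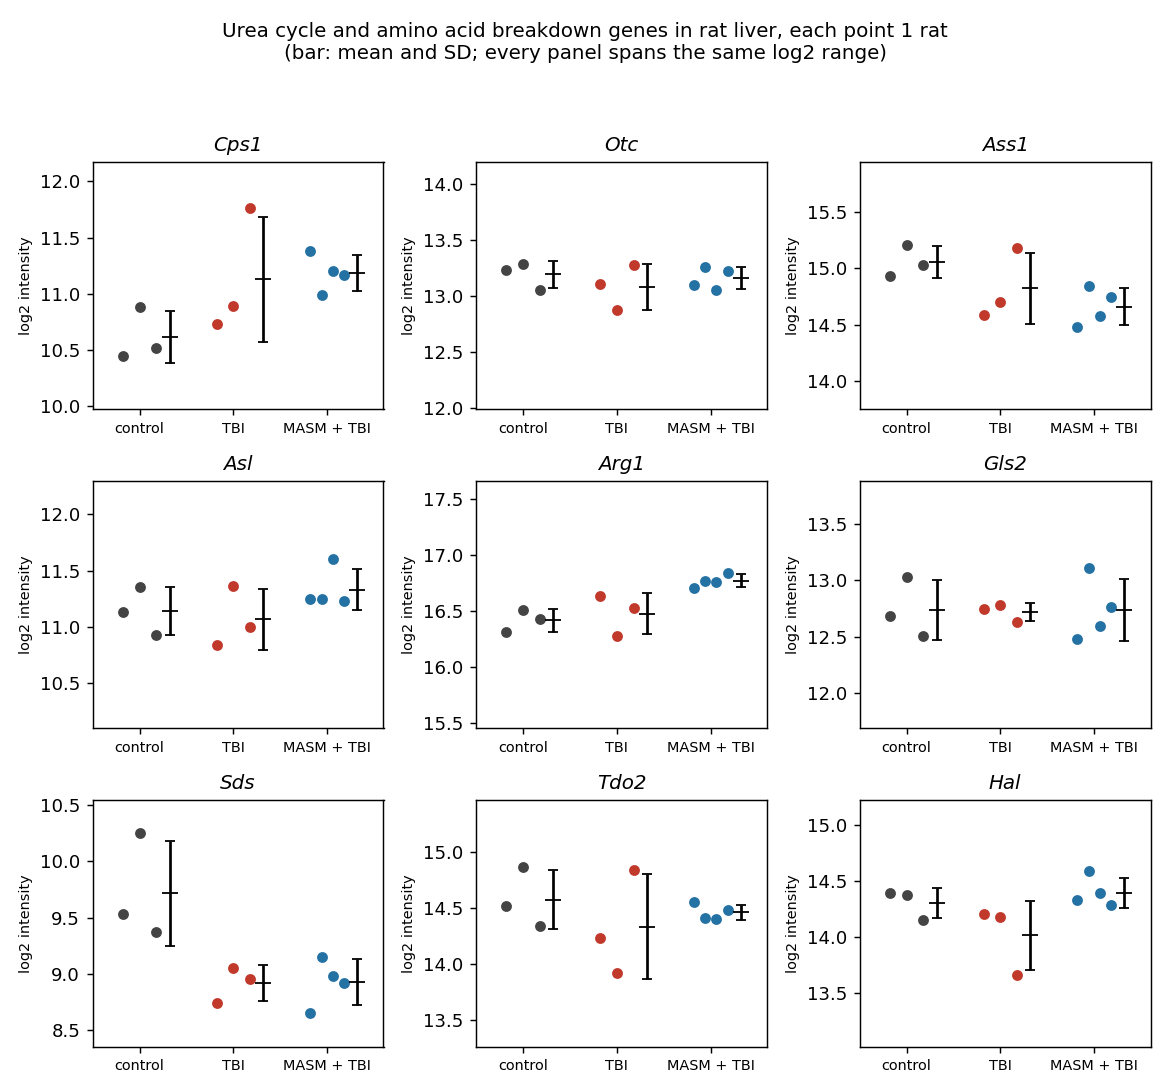
Log2 intensity of each gene (vertical axis) in each rat, by group on the horizontal axis, with the group mean and SD beside the points and the same span of log2 units in every panel. The 7 irradiated rats lie below the 3 controls for Sds, and the 4 MASM + TBI rats lie above all others for Arg1.

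Sds had the largest difference from control among the 9 genes in both irradiated groups, an order that rests on control rat 2 and on the normalization. Without that rat Cps1 differed more, by 0.65 in TBI and 0.70 in MASM + TBI rats on the log2 scale, and without normalization Cps1 differed more in TBI rats, by 0.83 against -0.48 for Sds. It encodes serine dehydratase, which splits serine into pyruvate and ammonia and is among the most diet-responsive enzymes of the rat liver. Its log2 intensity was 9.53, 10.25 and 9.37 in the control rats, 8.74, 9.05 and 8.95 in the TBI rats and 8.65, 9.15, 8.98 and 8.92 in the MASM + TBI rats. The highest irradiated rat, at 9.15, lay below the lowest control, at 9.37. The TBI mean was 1.75-fold lower than control (log2 difference -0.80, SE 0.23, 95% interval -1.33 to -0.28, limma adjusted p = 0.0815). The MASM + TBI mean was 1.73-fold lower than control (-0.79, SE 0.21, interval -1.28 to -0.30, limma adjusted p = 0.0963). The irradiated groups differed from each other by 0.01 (interval -0.48 to 0.50, limma adjusted p = 0.988), which leaves room for a difference of up to 1.41-fold in either direction. A comparison of all 7 irradiated rats with the 3 controls, chosen after these values were seen, gave -0.80 (SE 0.19, limma adjusted p = 0.0559), where 4.82% of all probes were called.

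Control rat 2 had the highest Sds of the 10 rats. Without it the TBI difference was -0.54 and the MASM + TBI difference -0.53, both short of 1.5-fold (limma adjusted p = 0.127 and 0.178). The call itself depended on the processing. With each array scaled to its 75th percentile the limma adjusted p for TBI against control was 0.0465, and with the slide as a random block it was 0.0213 for TBI and 0.0372 for MASM + TBI. The slide correlation of that block was -0.133. A value below 0 narrows the SE of differences between slides, so calls with that block came more easily, also for other genes. With the slide as a fixed block the MASM + TBI difference was -0.74 (limma adjusted p = 0.446).

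**Figure D2:**
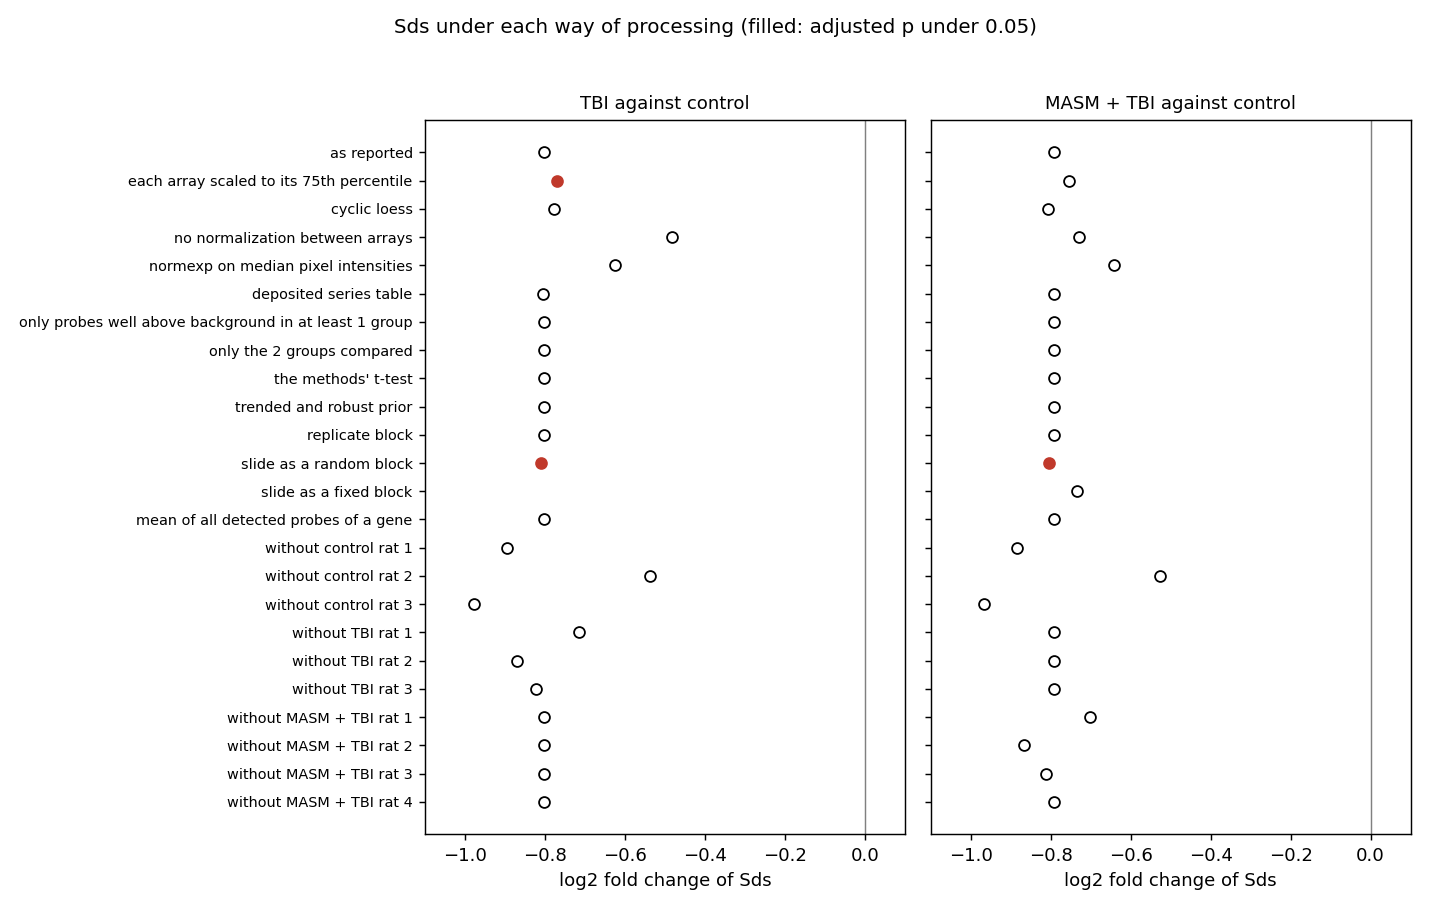
Log2 fold change of Sds against control (horizontal axis) for TBI on the left and MASM + TBI on the right, under each way of processing the arrays and with each rat left out (vertical axis). All values lie below 0, between -0.98 and -0.48, and filled points mark the 3 with an adjusted p under 0.05.

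Of the 5 enzymes of the urea cycle, Cps1, Ass1 and Arg1 lay apart from control in the MASM + TBI rats, and Otc and Asl overlapped in every comparison. For MASM + TBI against control, 4 of the 9 genes (these 3 and Sds) had no overlap between groups, as did 18.3% of all probes. For TBI against control it was 1 of 9 (Sds), against 30.3% of all probes.

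Cps1 encodes carbamoyl phosphate synthetase, the mitochondrial entry enzyme that fixes ammonia and sets the pace of the cycle. Its log2 values were 10.45, 10.88 and 10.52 in control, 10.73, 10.89 and 11.76 in TBI and 11.38, 10.99, 11.20 and 11.17 in MASM + TBI. All 4 MASM + TBI rats lay above the controls, and of the TBI rats only rat 3 stood clearly apart. The MASM + TBI mean was 1.48-fold that of control (log2 difference 0.57, SE 0.24, limma adjusted p = 0.278). The TBI mean differed from control by 0.51 (SE 0.26, limma adjusted p = 0.272), and by 0.20 without TBI rat 3. Without TBI rat 1, Cps1 also met the study's threshold in TBI rats, at 0.71. In MASM + TBI rats Cps1 met it with scaling to the 75th percentile (0.66), without MASM + TBI rat 2 (0.63) and without control rat 2 (0.70).

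Otc encodes ornithine transcarbamylase, which joins carbamoyl phosphate to ornithine in the mitochondrion. Its 10 values lay between 12.87 and 13.28 with no order among the groups. The differences from control were -0.11 in TBI and -0.03 in MASM + TBI rats, with intervals of -0.38 to 0.17 and -0.29 to 0.22, all inside a 1.5-fold change.

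Ass1 encodes argininosuccinate synthase, which brings in the second nitrogen from aspartate. On the log2 scale the rats had 14.93, 15.21 and 15.03 in control, 14.58, 14.70 and 15.18 in TBI and 14.48, 14.84, 14.58 and 14.74 in MASM + TBI. All 4 MASM + TBI rats lay below the controls, while TBI rat 3 lay among them. The MASM + TBI mean was 1.32-fold below control (-0.40, SE 0.16, limma adjusted p = 0.246), and the TBI difference was -0.24 (SE 0.17, limma adjusted p = 0.439).

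Asl encodes argininosuccinate lyase, which releases arginine. Control rats had 11.13, 11.35 and 10.93, TBI rats 10.84, 11.37 and 10.99, and MASM + TBI rats 11.25, 11.24, 11.60 and 11.23. The ranges overlapped throughout, and the differences from control were -0.07 in TBI and 0.19 in MASM + TBI rats (SE 0.17 and 0.16).

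Arg1 encodes liver arginase, which splits arginine into urea and ornithine and closes the cycle. Log2 intensities were 16.31, 16.51 and 16.43 in control, 16.63, 16.27 and 16.53 in TBI and 16.71, 16.77, 16.76 and 16.84 in MASM + TBI. All 4 MASM + TBI rats lay above the other 6 rats, which overlapped with one another. The MASM + TBI mean was 1.28-fold that of control (0.35, SE 0.10, interval 0.13 to 0.58, limma adjusted p = 0.105). It was 1.22-fold that of TBI (0.29, SE 0.10, interval 0.07 to 0.52, limma adjusted p = 0.187), a comparison between arrays of different slides only. The call against control was made with normexp background correction (limma adjusted p = 0.0222) and with the slide as a random block (0.0431).

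MASM + TBI rat 3 was the only irradiated rat whose array lay on the slide of the controls. With the slide as a fixed block the difference between MASM + TBI and control therefore rests on this 1 rat. It was 0.58 for Cps1, -0.48 for Ass1 and 0.34 for Arg1.

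Gls2 encodes the liver glutaminase, which frees ammonia from glutamine next to the urea cycle. Controls had 12.69, 13.03 and 12.50, TBI rats 12.75, 12.78 and 12.63, and MASM + TBI rats 12.48, 13.11, 12.59 and 12.77. The group means were 12.74, 12.72 and 12.74, and all 3 intervals lay inside 1.5-fold.

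Tdo2 encodes tryptophan dioxygenase, the first and rate-setting step of the kynurenine route and a classic glucocorticoid-induced liver enzyme. Log2 intensities were 14.52, 14.86 and 14.34 in control, 14.24, 13.92 and 14.84 in TBI and 14.55, 14.41, 14.40 and 14.48 in MASM + TBI. The TBI rats spanned almost the whole range of all 10 rats and the MASM + TBI rats hardly varied. The difference from control was -0.24 in TBI (SE 0.22, limma adjusted p = 0.55) and -0.11 in MASM + TBI rats (SE 0.21, limma adjusted p = 0.906). With 1 rat left out the TBI difference ranged from -0.50 to -0.04.

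Hal encodes histidine ammonia lyase, which removes the amino group of histidine as ammonia. Log2 values of Hal were 14.39, 14.38 and 14.15 in control, 14.21, 14.18 and 13.66 in TBI and 14.33, 14.59, 14.39 and 14.29 in MASM + TBI. Each of the MASM + TBI rats lay above every TBI rat. The difference between them was 0.38 (SE 0.15, limma adjusted p = 0.245), while TBI against control gave -0.29 (SE 0.16, limma adjusted p = 0.317) and MASM + TBI against control 0.09 (SE 0.15, limma adjusted p = 0.878). With 1 rat left out the difference of TBI from control ranged from -0.39 to -0.11. Between the irradiated groups, Hal and Arg1 were the 2 of 9 genes without overlap, as were 18.5% of all probes.

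**Figure D3:**
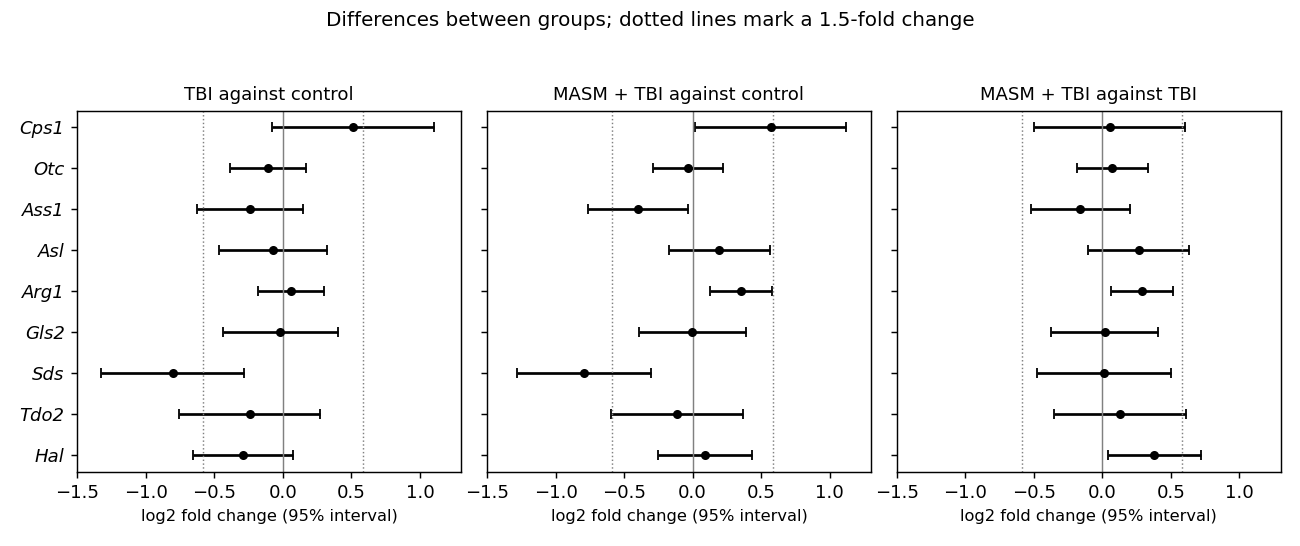
Log2 fold change of each gene (horizontal axis, point) with its 95% interval from limma (bar) for TBI against control, MASM + TBI against control and MASM + TBI against TBI, with dotted lines at a 1.5-fold change. The intervals of Sds exclude 0 against control in both irradiated groups, and those of Otc, Arg1 and Gls2 stay between the dotted lines in all 3 panels.

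As a group the 9 genes had a median log2 difference of -0.11 for TBI against control, -0.00 for MASM + TBI against control and 0.07 for MASM + TBI against TBI, beside -0.03, 0.00 and 0.04 over all probes. Against control 2 of 9 were positive in TBI and 4 of 9 in MASM + TBI, and 8 of 9 were positive between the irradiated groups, where 45.6%, 51.1% and 56.9% of all probes were. Without normalization between arrays these counts were 8, 7 and 3, and the median of all probes then moved to 0.22, 0.01 and -0.18. A change beyond 1.5-fold lay outside the 95% interval for 4 genes in TBI against control (Otc, Asl, Arg1 and Gls2) and for 5 in each of the other comparisons.

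TBI rats varied more among themselves than MASM + TBI rats for 7 of the 9 genes, the exceptions being Gls2 and Sds. The same held for 69.4% of the 8439 genes that stood well above background throughout. Of the TBI rats, rat 3 had the highest Cps1, Otc, Ass1 and Tdo2 and the lowest Gls2 and Hal. Its array was the brightest, whose part in these values was not tested. The bases upstream of Cps1, Otc, Ass1 and Tdo2 are printed here because, among the TBI rats, their levels stood highest in the same rat. Over all rats only Cps1 was highest there, and Otc, Ass1 and Tdo2 were highest in control rat 2. They are the 250 bases before the annotated start in RefSeq, build GRCr8, in lower case, with the matches to the motifs searched in capitals. RefSeq windows were matched once for 5 of the 9 genes. Cps1 lies at chr9:76063613-76063862 on the plus strand, Otc at chrX:15202474-15202723 on the minus strand, Ass1 at chr3:35149480-35149729 on the plus strand and Tdo2 at chr2:169585587-169585836 on the minus strand.
Cps1: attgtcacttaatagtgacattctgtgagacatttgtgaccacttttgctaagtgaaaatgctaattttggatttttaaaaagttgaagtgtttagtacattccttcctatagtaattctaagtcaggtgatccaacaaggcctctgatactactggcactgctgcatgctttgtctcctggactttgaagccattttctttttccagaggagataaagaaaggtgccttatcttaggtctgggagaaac
Otc: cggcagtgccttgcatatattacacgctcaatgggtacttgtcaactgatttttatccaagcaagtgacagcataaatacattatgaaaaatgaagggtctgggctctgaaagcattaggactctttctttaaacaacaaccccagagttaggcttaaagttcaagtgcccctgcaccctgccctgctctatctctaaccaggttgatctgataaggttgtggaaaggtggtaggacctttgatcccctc
Ass1: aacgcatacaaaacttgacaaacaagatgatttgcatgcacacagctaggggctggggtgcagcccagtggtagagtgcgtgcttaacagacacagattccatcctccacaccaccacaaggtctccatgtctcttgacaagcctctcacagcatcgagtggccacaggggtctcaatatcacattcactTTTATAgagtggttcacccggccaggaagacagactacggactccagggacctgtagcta
Tdo2: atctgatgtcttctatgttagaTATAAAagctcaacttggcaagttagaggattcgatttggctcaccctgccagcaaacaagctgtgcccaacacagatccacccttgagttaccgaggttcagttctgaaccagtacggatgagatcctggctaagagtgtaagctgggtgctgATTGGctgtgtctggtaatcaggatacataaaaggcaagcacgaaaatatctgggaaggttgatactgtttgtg

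The motifs were searched on both strands. They were the TATA box letters TATAAA (in 12.9% of 33469 windows), the CCAAT box CCAAT (34%), the cAMP response element TGACGTCA (1.59%), the C/EBP core TTGCNNAA (9.22%), the glucocorticoid half-site TGTTCT (17.5%) and the full palindromic glucocorticoid response element (0.012%), which holds the half-site. Ass1 held TATAAA on the minus strand 60 to 55 bases before the start. Tdo2 held TATAAA 228 to 223 bases before the start and CCAAT on the minus strand 74 to 70 bases before it. The Cps1 and Otc windows held none of these letters. The GC content was 38%, 44.4%, 51.2% and 45.2% in the order printed, against a median of 51.2% over all windows.

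Beyond these 9 enzymes, 78 measured genes of nitrogen handling and amino acid breakdown were examined in 8 lists, and few of them passed the test. For TBI against control 2 of 78 rose and 0 fell, where 2.44% and 3.19% of all probes did. For MASM + TBI against control 1 of 78 rose and 0 fell, where 1.26% and 1.73% of all probes did. Between the irradiated groups 0 of 78 were called in limma, where 1.63% of all probes were. At an unadjusted p under 0.05 the counts were 22, 19 and 11 of 78 in the 3 comparisons, beside 23.5%, 17% and 17% of all probes.

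Hgd was among the genes that rose in TBI rats. It encodes homogentisate dioxygenase, a late step of tyrosine breakdown, and had 14.63, 14.53 and 14.52 in control, 15.05, 15.06 and 14.90 in TBI and 14.80, 15.06, 14.77 and 15.04 in MASM + TBI. Every irradiated rat lay above every control. Its TBI rise was 1.36-fold (log2 difference 0.45, SE 0.11, limma adjusted p = 0.0472), a call that held in 2 of 10 fits with 1 rat left out (without TBI rat 3 or MASM + TBI rat 3). The gene that rose in MASM + TBI rats was Kmo, the kynurenine monooxygenase downstream of Tdo2. It had 9.85, 9.83 and 9.48 in control, 9.73, 9.95 and 9.94 in TBI and 10.21, 10.33, 10.19 and 10.23 in MASM + TBI, and its rise was 1.43-fold (0.52, SE 0.11, limma adjusted p = 0.0462), a call that held in 1 of 10 fits with 1 rat left out (without TBI rat 1).

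The list of ammonia, glutamine and urea cycle genes held 20 measured members, with median log2 differences from control of 0.10 in TBI and 0.32 in MASM + TBI rats. Glul encodes the glutamine synthetase of the hepatocytes around the central vein. It had 10.73, 10.30 and 10.85 in control, 10.51, 11.48 and 11.03 in TBI and 11.02, 10.93, 10.88 and 10.94 in MASM + TBI, with differences of 0.38 and 0.31 from control (limma adjusted p = 0.369 and 0.546). With 1 rat left out these differences ranged from 0.14 to 0.63 in TBI and from 0.15 to 0.43 in MASM + TBI rats. Nags makes the activator that Cps1 needs. It differed from control by -0.00 in TBI and 0.28 in MASM + TBI rats (limma adjusted p = 0.991 and 0.266), and was picked for that role after its values were seen.

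Tat encodes tyrosine aminotransferase, the textbook hormone-induced aminotransferase of the liver. Its log2 intensity was 9.16, 10.08 and 8.86 in control, 10.56, 10.86 and 11.27 in TBI and 10.45, 10.80, 11.18 and 9.57 in MASM + TBI. All TBI rats lay above the controls, and MASM + TBI rat 4 lay among the controls. The difference was 1.53 in TBI (2.89-fold, SE 0.45, limma adjusted p = 0.0885) and 1.13 in MASM + TBI rats (2.19-fold, SE 0.42, limma adjusted p = 0.211). The TBI call was made with arrays scaled to the 75th percentile (limma adjusted p = 0.0433) and with the slide as a random block (0.0324).

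At the study's threshold 6 of the 78 genes differed in TBI against control (12.6% of all probes), and they are named after their values were seen. Higher were Got1 (1.14), which makes aspartate, the amino acid transporter Slc38a2 (1.62), Tat and Aass (0.89), the first enzyme of lysine breakdown. Lower were the transporter Slc38a4 (-0.60) and Csad (-0.67), which makes hypotaurine. In MASM + TBI against control 4 of 78 met it (8.06% of all probes), namely Slc38a2 (1.47), Tat, the arginine transporter Slc7a2 (1.09) and, on the lower side, Car5a (-0.69), the mitochondrial carbonic anhydrase that supplies bicarbonate to Cps1. Between the irradiated groups 1 of 78 met it (7.98% of all probes), Csad, at 0.62. A second Slc7a2 probe differed from control by 0.49 in MASM + TBI and 0.34 in TBI rats, both short of 1.5-fold and not called.

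**Figure D4:**
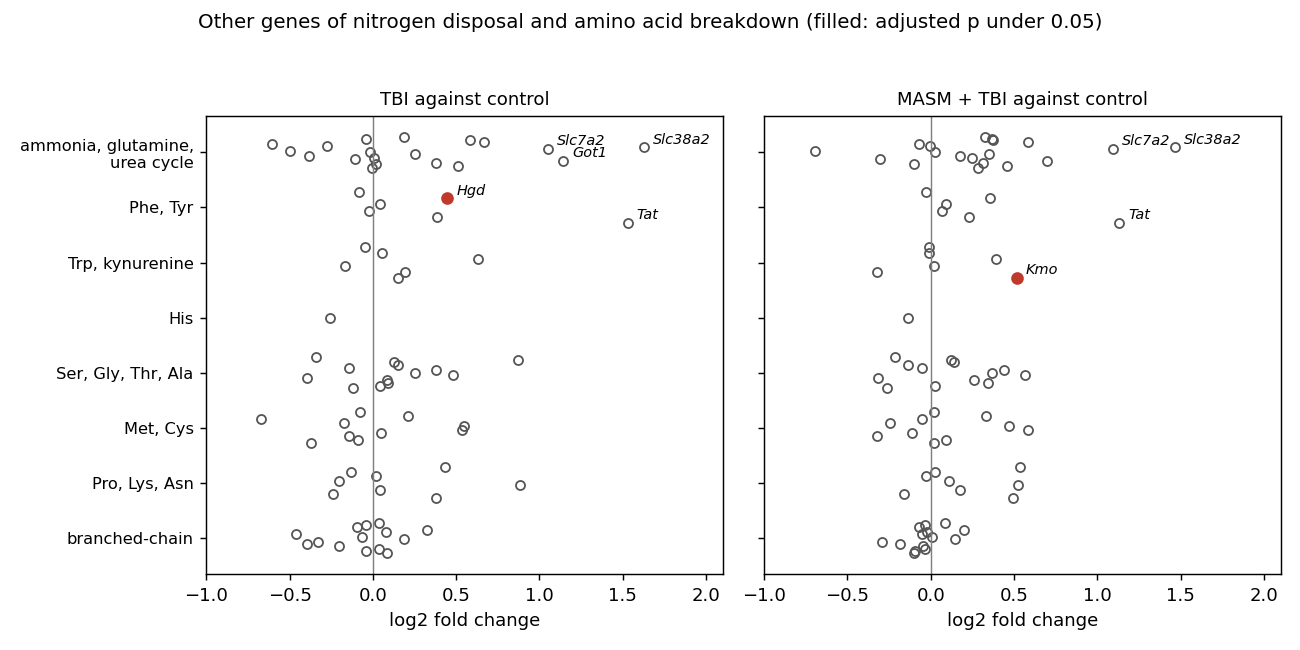
Log2 fold change (horizontal axis) of further pathway genes by the amino acids they handle (vertical axis), for TBI against control on the left and MASM + TBI against control on the right. Filled points mark Hgd on the left and Kmo on the right, which had an adjusted p under 0.05, and names are also given to genes beyond 1 log2 unit.

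Of 16 measured regulators and hormone-responsive genes, 4 were called in TBI against control (5.63% of all probes) and 0 in the other comparisons, where 2.99% and 1.63% of all probes were. Sgk1, a kinase gene induced by corticosteroids, rose by 1.57 (SE 0.28, limma adjusted p = 0.0188). Tsc22d3, the glucocorticoid-induced leucine zipper, rose by 0.68 (SE 0.14, limma adjusted p = 0.0343), and its second probe by 1.09. Fkbp5, a co-chaperone gene likewise induced by glucocorticoids, fell by 0.82 (SE 0.18, limma adjusted p = 0.037), with -0.53 and -0.52 at 2 further probes that were not called. Gcgr, the glucagon receptor, fell by 0.73 (SE 0.18, limma adjusted p = 0.04995). Leaving out any 1 control ended each of these 4 calls. Over the 10 fits with 1 rat left out, Sgk1 was called in 7, Fkbp5 in 4 (without TBI rat 1 or 3 or MASM + TBI rat 3 or 4), Tsc22d3 in 3 (without MASM + TBI rat 1, 3 or 4) and Gcgr in 1 (without MASM + TBI rat 2). In MASM + TBI against control the same 4 genes gave 0.74, 0.48, -0.24 and -0.60, with no call.

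Markers of other cells were compared as well. Of all probes 5.63% were called in TBI and 2.99% in MASM + TBI against control, and 3.19% and 1.73% were called lower. Between the irradiated groups 1.63% were called. The summed linear signal of the 6 measured lymphocyte markers was 619 to 864 in control, 382 to 572 in TBI and 287 to 503 in MASM + TBI rats, with Cd3e and Cd79b called lower in both irradiated groups and Cd2 in TBI. Cd3e was not well above background on any array, and Cd2 and Cd79b were well above it on all 3 control arrays and on 0 TBI arrays, so these falls ended at the floor of the array. Over the 6 markers, 4 were well above background on all control arrays and 2 on all arrays of either irradiated group. These 2 were Ptprc and Cd3d, the brightest of the 6. Against control Ptprc gave -0.21 in TBI and -1.04 in MASM + TBI rats, and Cd3d -0.78 and -0.65, with no call. A further Ptprc probe gave 0.47 and -1.20, the latter called (limma adjusted p = 0.0195). That probe was also called for MASM + TBI against TBI, at -1.67 (limma adjusted p = 0.00818). Another Ptprc probe gave -0.04 and -1.07 against control, with no call. Of the 3 measured stellate cell markers, Lrat was called lower in both irradiated groups, while Des differed by -0.03 and -0.43 and Reln by 0.40 and 0.12 in TBI and MASM + TBI rats with no call. The 6 Kupffer cell and macrophage markers, all well above background, summed to 47106 to 66966 in control, 46676 to 86466 in TBI and 37162 to 46068 in MASM + TBI rats, with 0 of 6 called in limma. All 6 had negative differences in MASM + TBI against TBI rats, with a median of -0.70, and Cd68 (-0.89), Marco (-0.86) and Csf1r (mean log2 level 8.28 against 9.38) met the study's threshold there, as did 7.98% of all probes. Of the 3 measured red blood cell markers, Hbb differed from control by -1.30 in TBI and -1.29 in MASM + TBI rats, Alas2 by -1.14 and -1.56, and Slc4a1 by 1.53 and 0.98, with no call in limma and 2 of 3 at the study's threshold in each comparison, beside 12.6% and 8.06% of all probes. The 4 measured markers of sinusoidal endothelium had median differences from control of 0.22 in TBI and -0.11 in MASM + TBI rats and did not move one way, with Lyve1 at 0.53 and 0.54, Kdr at 0.33 and 0.16, Pecam1 at 0.12 and -0.37 and Cdh5 at -0.27 and -0.61, none of them called in limma. Cdh5 met the study's threshold in MASM + TBI rats. The 8 hepatocyte markers, with 0 of 8 called, had median differences from control of 0.01 in TBI and 0.08 in MASM + TBI rats. In TBI rats they ranged from -0.52 (Ttr, without overlap with control) to 0.32, and in MASM + TBI rats from -0.29 to 0.27. Several were among the brightest probes, where quantile normalization sets values by rank, so small differences there say little. Tf had the same 18.18 in rats of all 3 groups. The part of these cells in the differences of Sds, Cps1, Ass1 and Arg1 was not tested.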

How the data were processed

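Liver RNA of 10 rats had been labelled with Cy3 and hybridised to Agilent rat arrays. The authors deposited the processed intensity of each spot from Feature Extraction 10.7.3.1, background-subtracted, on a linear scale and not normalized between arrays, per the file headers. Control spots and spots flagged as outliers were left out. After log2 transformation the values were quantile normalized and averaged by probe, and 40945 probes with a value on every array were tested (67 lacked one). Symbols came from RefSeq accessions (16968 probes, 13438 genes), and a gene with several probes was represented by the brightest.

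Groups came from the labels. A model with 3 group means was fitted to all arrays with limma 3.58.1 in R 4.3.3, two-sided, with the Benjamini-Hochberg adjustment over all probes. It was tested on simulated data for TBI against control, with changes put into probes drawn at random. It recovered 19.4% of 1.5-fold, 37.3% of 2-fold and 69.7% of 4-fold changes. Plots were drawn with matplotlib 3.10.9. The number of arrays limits the precision. Each array was taken as 1 rat, as the study describes them.

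All 9 members are named, and of the 8 pathway lists the called genes, Glul and Tat. Nags and the pathway genes at the study's threshold were named after their values were seen. Counts cover all list genes, and 1 called gene is not reported here. Members, lists and tests were chosen with earlier results of these data known. The comparison of all irradiated rats with control was added after the values were seen. Alternatives were other scalings, a normexp correction (offset 50) that used median pixel values in place of the planned means, the deposited series table, which held the same intensities, a filter on dim probes, the methods' t-test, other models and blocks, and each rat left out. The array design rests on rn4 and RefSeq on GRCr8, so only promoter windows carry coordinates.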

Additional observations from a re-analysis of the deposited data

Results flagged for a closer look

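In MASM + TBI rats, Asl stood at 11.60 (11.6008 unrounded) in rat 3, while the other 3 rats lay between 11.23 and 11.25. The gap to the nearest rat took up 0.955 of the group's range, which marks the rat as apart from its group. It is the only MASM + TBI rat whose array shared a slide with the controls, which had 10.93 to 11.35. The 9 genes were each examined in this way in the MASM + TBI group, the only group of 4, and chance marks about 1 in 20 such groups.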

How the results depend on the processing

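Of 958 single-gene values recomputed under alternatives, 47 changed sign, none of these with an adjusted p under 0.05 in limma (lowest 0.462), and the largest size after a change of sign was 0.32. A further 83 kept their direction and lost their call, and 11 gained one. The cause was not tested.

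For TBI against control, the log2 differences without normalization between arrays were 0.24 for Otc, 0.10 for Ass1, 0.26 for Asl, 0.32 for Gls2, 0.10 for Tdo2 and 0.064 for Hal, where the median of all probes stood at 0.22. Gls2 gave 0.033 with scaling to the 75th percentile and 0.0017 with the slide as a random block. For MASM + TBI against control, scaling to the 75th percentile gave 0.10 (0.1050) for Otc, 0.13 for Gls2 and 0.027 for Tdo2, and no normalization gave 0.13, 0.16 and 0.052. Gls2 gave 0.0036 with cyclic loess, 0.033 with normexp and 0.028 with the slide as a random block. For MASM + TBI against TBI, no normalization gave -0.15 for Cps1, -0.11 for Otc, -0.16 for Gls2, -0.25 for Sds and -0.050 for Tdo2, where the median of all probes stood at -0.18, and Sds gave -0.028 with cyclic loess and -0.016 with normexp.

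With 1 rat left out, the values for TBI against control ranged from -0.22 to 0.043 for Asl, from -0.016 to 0.16 for Arg1 and from -0.14 to 0.13 for Gls2. The values for MASM + TBI against control ranged from -0.10 to 0.012 for Otc, from -0.13 to 0.14 for Gls2 and from -0.23 to 0.030 for Tdo2. Those for MASM + TBI against TBI ranged from -0.14 to 0.37 for Cps1, from -0.033 to 0.17 for Otc, from -0.28 to 0.019 for Ass1, from -0.11 to 0.10 for Gls2, from -0.077 to 0.10 for Sds, from -0.077 to 0.38 for Tdo2 and from -0.32 to 0.17 for Glul.

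The count of members called was 1 of 9 for TBI against control with scaling to the 75th percentile and 1 with the slide as a random block, both Sds. For MASM + TBI against control it was 1 with normexp (Arg1) and 2 with the slide as a random block (Arg1 and Sds). For all irradiated rats against control it was 1, Sds, with normexp, with only probes well above background in at least 1 group, with a trended and robust prior and with the slide as a random block. With any 1 rat left out the count was 0 in all comparisons by limma. At the study's threshold TBI against control gave 0 without normalization and 0 with the methods' t-test, and 0 to 2 with 1 rat left out (0 without control rat 2, 2 without TBI rat 1). MASM + TBI against control gave 2 with scaling to the 75th percentile, 0 without normalization and 0 with the methods' t-test. With 1 rat left out it gave 1 to 2 (2 without MASM + TBI rat 2).

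The count of the 78 pathway genes called for TBI against control was 6 with scaling to the 75th percentile, 0 without normalization, 6 with normexp, 1 with the deposited series table, 1 with only the 2 groups compared, 0 with the methods' t-test, 13 with the slide as a random block, 1 with the mean of all probes of a gene, and 0 to 5 with 1 rat left out (0 without control rat 1, control rat 3, TBI rat 2 or MASM + TBI rat 1, 1 without control rat 2 or MASM + TBI rat 2, and 5 without TBI rat 1). In MASM + TBI against control it was 0 with scaling to the 75th percentile, with cyclic loess, without normalization and with the methods' t-test. It was 6 with normexp, 4 with only probes well above background in at least 1 group, 3 with a trended and robust prior and 8 with the slide as a random block. With 1 rat left out it was 0 to 2 (2 without TBI rat 1, and 0 without any 1 control, TBI rat 2, or MASM + TBI rat 2 or 3). Between the irradiated groups it was 2 with scaling to the 75th percentile and 1 with the slide as a random block.

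Rats with the same replicate number deviated from their group means with correlations of -0.13 to 0.17 over all probes, so the numbers were not taken to pair rats. With the replicate block 0 of 9 members were called in each comparison, the pathway counts were 2, 1 and 0, and Hgd (limma adjusted p = 0.0888), Kmo (0.155), Gcgr (0.0996), Fkbp5 (0.0854) and Tsc22d3 (0.0593) were no longer called. The slide correlation of the random block was -0.133, below 0, which narrows the SE of differences between slides and made calls with that block easier. Signal over background set no limit for the 9 genes, and the number of rats sets the precision.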

Other observations

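For Igfbp1, Pdk4, Slc38a2, Slc7a2 and Tat, MASM + TBI rat 4 lay within or below the range of the controls, while the other 3 rats of its group lay above every control. These genes were picked after their values were seen, and no test was run. Igfbp1, which encodes an insulin-repressed binding protein of insulin-like growth factors, had a log2 intensity of 10.68, 12.49 and 10.91 in control, 13.41, 14.09 and 14.35 in TBI and 13.81, 13.43, 14.41 and 10.28 in MASM + TBI rats. Pdk4, a kinase gene that fasting raises, had 6.31, 8.47 and 7.79 in control, 9.06, 9.88 and 9.73 in TBI and 8.70, 9.34, 9.60 and 8.14 in MASM + TBI. Slc38a2 had 9.80, 10.40 and 10.03 in control, 11.35, 11.61 and 12.15 in TBI and 11.83, 12.05, 12.36 and 9.94 in MASM + TBI. Slc7a2 had 8.34, 8.22 and 8.39 in control, 8.91, 9.36 and 9.83 in TBI and 9.12, 9.98, 10.21 and 8.33 in MASM + TBI. Sgk1 and Got1 went another way in this rat. Sgk1 was 9.82, the highest of its group and above the controls at 8.65 to 8.79, and Got1 was 11.26 against controls at 10.13 to 10.65. Tsc22d3 lay between, at 10.60, just above the controls at 10.15 to 10.53 and below the other 3 rats of its group at 10.87 to 11.10. For G6pc1, the last enzyme of glucose release, rat 4 had 13.53, below all other rats, and the other 3 rats of its group had 15.43, 15.12 and 15.41, nearer the controls (14.94 to 15.25) than the TBI rats (15.80 to 16.22). Cdkn1a was 13.58 in this rat, the highest of its group and above every control. Its array shared a slide with those of MASM + TBI rats 1 and 2. Among the 9 urea cycle and amino acid genes rat 4 did not stand apart, with Sds at 8.92, Arg1 at 16.84 and Cps1 at 11.17.

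By the rule for likeness, the genes whose pattern over the 10 rats was most like that of Sds were Abhd16a (Pearson r = 0.95), Pnpla7 (0.94) and Xcl1 (0.94), out of 8438 genes compared. The rats fall into groups and share the normalization, so these values describe the ranking of genes and carry no test.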
